A study of Homo sapiens with 6 samples.

Results

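The clade B serpins were followed in H1975 cells before and after adaptation to osimertinib (Osi). These genes encode intracellular members of the serpin family of protease inhibitors, and 10 of them (SERPINB1 to SERPINB9 and SERPINB13) were taken by gene symbol from an expression table of 27216 rows. The family was selected on its own readout in this contrast, because SERPINB4 had the largest fall of all 12656 rows that passed a filter on low values (a mean log2 value of at least 1 over the 6 samples). The differences between parental and adapted cells are therefore given for the members as a description, with no p-value for a member. All 10 members had a row in the table, and 7 of them passed the filter. SERPINB2, SERPINB9 and SERPINB13 did not pass it and are described by their values.

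H1975 is an established human non-small cell lung cancer line that carries an activated mutant EGFR, and its genotype was given as WT, so no gene had been edited. The 3 parental samples were labelled as Osi for 0 h and the 3 adapted samples as Osi (1000 nM) for 72 h, Osi being an inhibitor of the EGFR tyrosine kinase. The dose is that of the labels. The study's methods give the same dose for other assays and none for the sequencing, and its reagent list gives a lower one. All 6 samples came from this single line, grown with fetal bovine serum in DMEM according to the labels and in another medium according to the methods. Dying cells were rinsed off the plates ahead of RNA extraction, so the adapted samples represent the cells that stayed attached. The parental columns carried the name DMSO, and whether those cells had been kept in DMSO was not given, so that time in culture and exposure to Osi cannot be told apart. The study describes its experiments in general as independent and repeated, but neither the labels nor the sequencing methods state that these replicates were separate cultures, and p-values below measure only the spread between these samples. In bulk samples such as these, fewer cells of a type and less RNA per cell cannot be told apart.

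Serpins present a flexible loop as bait to a protease and, once cut, trap the protease in a covalent complex, which uses up both molecules. Clade B members differ from most other serpins in lacking a classical signal peptide, so that they act mainly in the cytosol and nucleus, where they protect epithelial and immune cells from their own or stray proteases. SERPINB3 and SERPINB4, the squamous cell carcinoma antigens, arose by a recent duplication and are known as serum markers of squamous tumors, including those of the lung.

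The values were log2(FPKM + 1), with FPKM standing for fragments counted on a gene relative to its transcript length and to all mapped fragments. FPKM is used below where levels of different genes are compared. The linear values summed to 375342 to 387753 per sample over all rows, and sequencing depth is unknown. Across all rows the parental samples correlated at r = 0.997 with one another, adapted replicates 2 and 3 at 0.996, and adapted replicate 1 with these 2 at 0.991. Adapted replicate 1 lay over 0.5 from the mean of the other adapted samples in 9.92% of rows, against 2.99% and 3.38% for adapted replicates 2 and 3. The 6 epithelial markers, among them EPCAM and CDH1, had gene means of 7.45 to 10.5, and their summed FPKM was 3710 to 3742 in parental and 3491 to 3788 in adapted samples. The 10 markers of blood, endothelial and stromal cells summed to 5.09 to 5.62 FPKM in parental and 7.24 to 9.26 FPKM in adapted samples. Most of the adapted sum was COL1A1, which was at 2.02 ± 0.02 (log2) in parental and 3.14 ± 0.16 in adapted samples. The other markers went both ways, with PECAM1 lower (1.22 to 0.09) and VWF higher (0.03 to 0.24) in adapted samples. In each group 3 of the 10 were listed at 0 in all of its samples. These were CD3E and MS4A1 in both groups, PTPRC in the parental group only and LYZ in the adapted group only. None of 16 genes that every cell uses was listed at 0 in any sample (0 of 16).

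The genomic context of the family is shown by the promoter sequences of SERPINB4 and SERPINB3. On GRCh38.p14 (RefSeq annotation), SERPINB4 lies at chr18:63637259-63644256 and SERPINB3 at chr18:63655197-63661893, both on the minus strand with 10940 bases between them. The 250 bases before each RefSeq start, chr18:63644257-63644506 for SERPINB4 and chr18:63661894-63662143 for SERPINB3, were identical at 247 positions (98.8%). They are shown because these 2 genes had the largest differences of the family, and the capitals mark the 3 positions at which they differ.
SERPINB4: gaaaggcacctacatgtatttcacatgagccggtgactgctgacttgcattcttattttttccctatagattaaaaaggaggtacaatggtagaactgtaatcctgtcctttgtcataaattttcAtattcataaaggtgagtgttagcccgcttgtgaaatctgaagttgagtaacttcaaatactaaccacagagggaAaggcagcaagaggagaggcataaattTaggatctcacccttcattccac
SERPINB3: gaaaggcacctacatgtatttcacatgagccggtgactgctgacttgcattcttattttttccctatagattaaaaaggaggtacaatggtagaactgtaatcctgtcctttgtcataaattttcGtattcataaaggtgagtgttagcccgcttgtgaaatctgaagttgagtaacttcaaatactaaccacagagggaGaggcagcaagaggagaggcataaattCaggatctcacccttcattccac
Counted from 1 at the 5′ end of the window, with the SERPINB4 base first, the differences were A126G, A201G and T228C. Compared position by position without gaps, no other pair of windows from different clade B genes was as similar. The next pair was identical at 34.4% of positions. Similarity offset by an inserted or deleted base would not be seen in this way.

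SERPINB4, which is known to inhibit chymotrypsin-like enzymes such as cathepsin G and mast cell chymase, was at 6.19, 6.24 and 6.27 (log2) in the parental samples and at 0.63, 0.27 and 0.32 in the adapted samples. The groups lay far apart, and the highest adapted value was that of replicate 1. The mean went from 6.23 ± 0.04 to 0.40 ± 0.19 (SD, n = 3 each), a log2 difference of -5.83 (SE 0.10). On the FPKM scale this was 74.1 ± 2.03 against 0.331 ± 0.184, a ratio of 224 that became 328 without adapted replicate 1. The next largest fall in the table was that of S100A8, at -5.77. Among the 339 tested rows that started from a parental mean of 6 to 6.5, the median log2 difference was -0.12 and the 5th and 95th percentiles were -1.78 and 0.83. SERPINB4 is among these rows and was chosen for its fall, so its place outside these percentiles was fixed in advance.

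SERPINB3, which inhibits lysosomal cysteine proteases such as cathepsins L, S and K, was at 4.94, 4.96 and 5.0 (log2) in the parental samples. In the adapted samples it was at 0.44 in replicate 1 and listed at 0 in replicates 2 and 3. All adapted values were thus below all parental values. The log2 difference was -4.82 (SE 0.13), the seventh largest fall in the table. The parental FPKM was 29.7, 30.1 and 31.0, and the only adapted value above 0 was 0.353 FPKM. SERPINB3 made up 28.8% to 29.2% of the summed SERPINB3 and SERPINB4 FPKM in the 3 parental samples, so the proportion of the pair hardly varied between them.

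The 2 genes share sequence, which bears on how reads were divided between them. Stretches of the longest protein-coding GENCODE v29 transcript of SERPINB3 were looked up in all GENCODE v29 transcripts of SERPINB4. Of its 50-base stretches 23.9% also occurred there, as did 3.4% of its 100-base stretches and 0% of its 150-base stretches. The read length and the handling of reads with several matches are not given in the sources used here, so the split between SERPINB3 and SERPINB4 is uncertain while their sum is less so. The summed FPKM of the pair was 101.6, 104.5 and 107.0 in the parental samples and 0.896, 0.205 and 0.246 in the adapted samples. The means were 104 ± 2.69 and 0.449 ± 0.387 FPKM (SD, n = 3 each). Their ratio was 232, and 462 without adapted replicate 1.

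**Figure D1:**
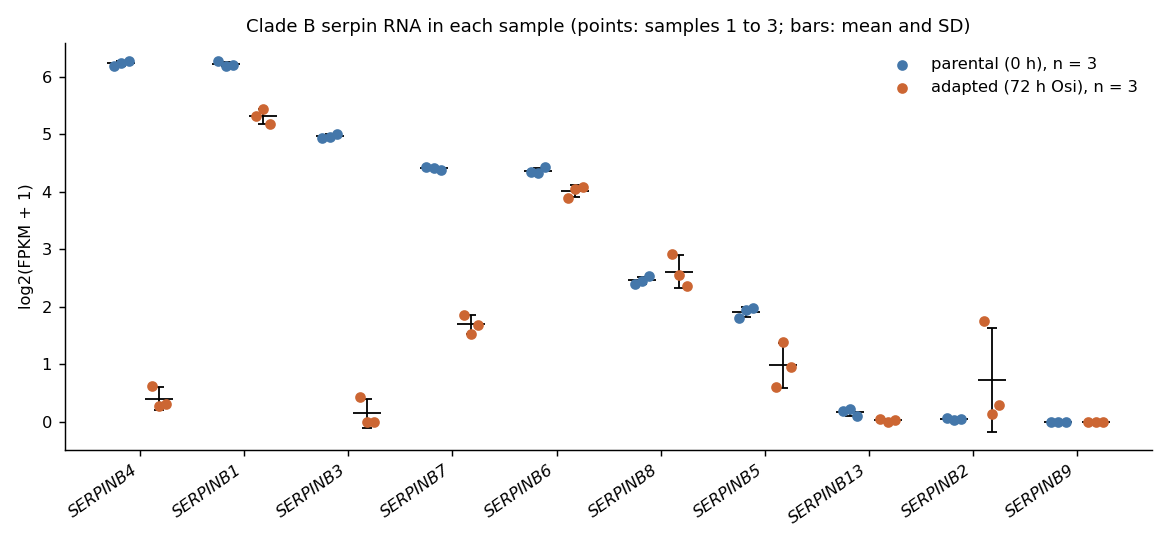
Log2(FPKM + 1) of the 10 clade B serpins (y axis) by gene (x axis, ordered by parental mean) in the 3 parental (blue) and 3 adapted (orange) samples of H1975 cells, with points for samples and bars for the group mean and SD. SERPINB4 and SERPINB3 drop to near 0 in adapted cells, SERPINB7 drops to an intermediate level, and the SERPINB8 samples of the groups overlap.

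SERPINB7 (megsin), a serpin of skin and kidney whose loss causes a palmoplantar keratoderma, was at 4.43, 4.41 and 4.38 (log2) in parental cells and at 1.85, 1.53 and 1.69 in adapted cells. It was the third of the family by size of the difference, -2.71 (SE 0.09), and its groups did not overlap. Unlike SERPINB3 and SERPINB4 it stayed well above 0 in every adapted sample. Its FPKM averaged 20.2 ± 0.343 before and 2.24 ± 0.357 after adaptation (SD, n = 3 each), with a ratio of 8.99 that ranged from 8.35 to 9.79 when single samples were left out.

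SERPINB5 (maspin), an epithelial serpin that does not inhibit proteases and is known as a tumor suppressor of the breast, was a low-level member. Its values were 1.81, 1.94 and 1.97 (log2) in parental and 0.60, 1.39 and 0.95 in adapted cells. The adapted samples were all lower but spread widely (0.98 ± 0.39 against 1.91 ± 0.08, SD, n = 3 each). The log2 difference was -0.93 (SE 0.19), and -1.46 with a pseudocount of 0.1 in place of 1. The ratio of mean FPKM was 2.69, and 2.16 to 3.79 when single samples were left out.

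SERPINB1, an inhibitor of the neutrophil proteases elastase and cathepsin G, was at 6.26, 6.19 and 6.21 (log2) in parental and at 5.32, 5.44 and 5.18 in adapted cells. Its difference was -0.91 (SE 0.08), and its parental level was close to that of SERPINB4. Its FPKM averaged 73.6 ± 2.01 before and 38.9 ± 3.62 after adaptation (SD, n = 3 each), with a ratio of 1.89. SERPINB6, a widely expressed inhibitor of trypsin-like enzymes and cathepsin G, was at 4.34, 4.32 and 4.42 (log2) in parental and at 3.89, 4.05 and 4.08 in adapted cells. Among the members past the filter whose groups did not overlap this was the smallest difference, at -0.36 (SE 0.07), with FPKM of 19.6 ± 0.791 and 15.1 ± 1.12.

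SERPINB8, a known inhibitor of the proprotein convertase furin, was at 2.40, 2.45 and 2.53 (log2) in parental and at 2.92, 2.55 and 2.35 in adapted cells. Here the groups overlapped, with adapted replicates 1 and 2 above and adapted replicate 3 below every parental sample. The difference was 0.15 (SE 0.14), and without adapted replicate 1 it was -0.0083, so its sign rested on that sample.

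SERPINB2, the plasminogen activator inhibitor of monocytes and placenta, was at 0.07, 0.02 and 0.05 (log2) in parental and at 1.76, 0.13 and 0.29 in adapted cells. It was the only member of the 10 with all adapted samples above all parental samples. Most of this came from adapted replicate 1, at 2.39 FPKM against 0.0935 and 0.227 in the other two. The ratio of mean FPKM was 26.6, and 4.72 without that sample. Of the 50-base stretches of SERPINB2, 23.7% also occurred in transcripts of SERPINB10, as did 19.9% of its 150-base stretches. The longest protein-coding transcript of SERPINB10 shared 0% of its own 50-base stretches with SERPINB2, so the overlap lies in other annotated SERPINB10 transcripts. An effect of this on the SERPINB2 values was not tested. SERPINB13, an inhibitor of cathepsins in stratified epithelium, was at 0.18, 0.23 and 0.10 (log2) in parental and at 0.05, 0 and 0.03 in adapted cells, all under 1 FPKM. SERPINB9, the inhibitor of granzyme B in cytotoxic lymphocytes, was listed at 0 in all 6 samples. With depth unknown, no upper limit can be set for it.

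Over the 7 members that passed the filter, 6 had an adjusted p under 0.05 in the lower direction (limma) and 0 in the higher direction, where also 0 had an unadjusted p under 0.05. Over all rows tested, 26.2% were called lower and 30.7% were called higher. In 6 of the 7 members all adapted samples lay below all parental samples, as in 30.6% of all rows, and in 0 they lay above, as in 35.7% of all rows. The median log2 difference was -0.93 over these members and 0.03 over all rows tested. Nothing is read from these counts, since the same contrast chose the family and SERPINB3, SERPINB4 and SERPINB5 passed the filter through their parental values alone. Adapted replicate 1 was above the other two adapted samples in 6 of the 10 members (SERPINB2, SERPINB3, SERPINB4, SERPINB7, SERPINB8 and SERPINB13) and below them in SERPINB5 and SERPINB6. The part of that sample's general departure in these values was not tested.

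**Figure D2:**
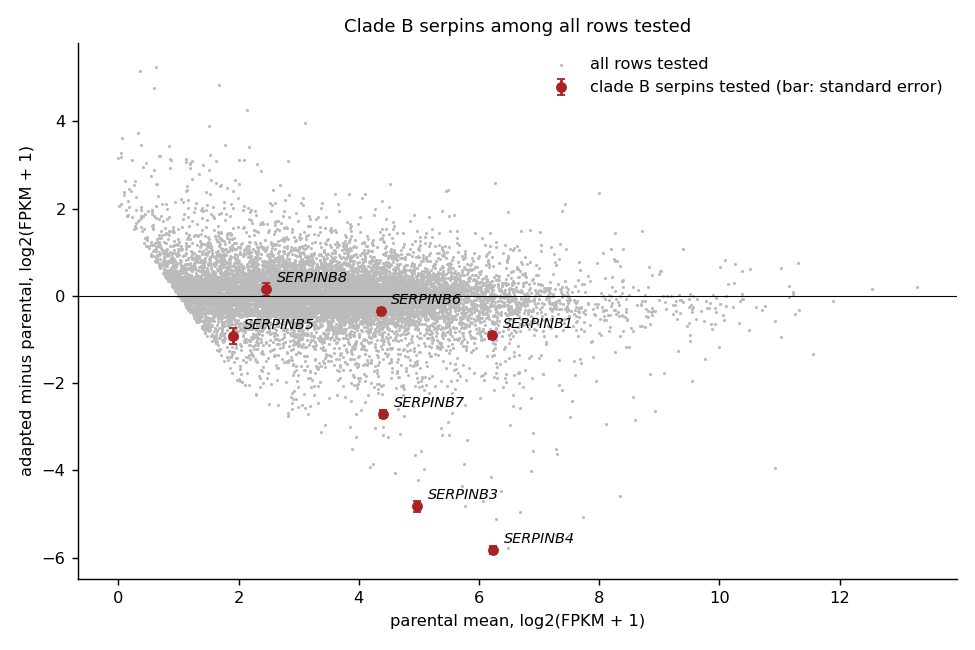
Difference between adapted and parental means (log2, y axis) against the parental mean log2(FPKM + 1) (x axis) for all 12656 tested rows (grey) and the 7 clade B serpins that passed the filter (red, named, with standard errors). SERPINB4 lies at the lower edge of all rows at -5.83, SERPINB3 and SERPINB7 lie below most rows of similar parental level, and SERPINB6 and SERPINB8 lie within the bulk.

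The make-up of the family changed along with its amount. Ordered by FPKM, the parental samples ran SERPINB4, SERPINB1, SERPINB3, SERPINB7, SERPINB6, SERPINB8, SERPINB5, SERPINB13, SERPINB2 and SERPINB9, with the sample ranges overlapping between SERPINB4 and SERPINB1 and between SERPINB7 and SERPINB6. The adapted samples ran SERPINB1, SERPINB6, SERPINB8, SERPINB7, SERPINB5, SERPINB2, SERPINB4, SERPINB3, SERPINB13 and SERPINB9. There the ranges were apart down to SERPINB5, and each gene from SERPINB5 onward overlapped with the next one. The summed FPKM of the 10 members was 224, 223 and 228 in the parental samples and 65.8, 66.7 and 58.9 in the adapted samples, a ratio of the means of 3.53. SERPINB3 and SERPINB4 together accounted for 46.3 ± 0.903% of that sum before and 0.696 ± 0.579% after adaptation (SD, n = 3 each). Without this pair the sum went from 121 ± 1.98 to 63.4 ± 4.13 FPKM, a ratio of 1.91. The share of SERPINB1 went from 32.7 ± 0.994% to 60.9 ± 2.42% while its own FPKM was lower, and that of SERPINB6 went from 8.69% to 23.8%.

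**Figure D3:**
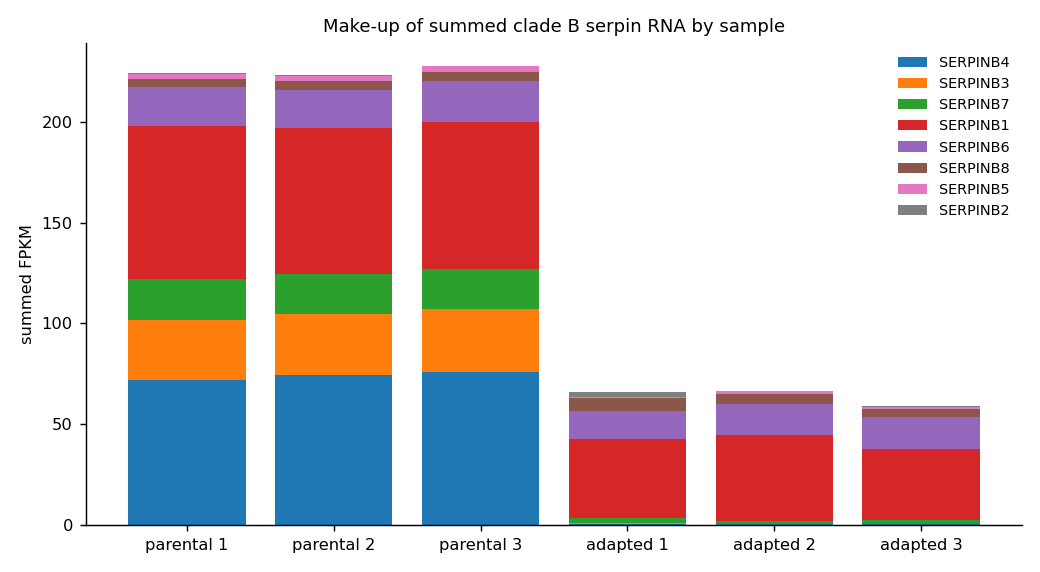
Summed FPKM of the 10 clade B serpins in each of the 6 samples, stacked by gene on an axis that starts at 0 (SERPINB9 and SERPINB13 are too low to be drawn). SERPINB3 and SERPINB4 fill close to 46% of the parental bars and are barely visible in the adapted bars, where SERPINB1 makes up the largest block.

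The 10 members sit in 2 gene clusters on GRCh38.p14. SERPINB1 (2832332 to 2841863), SERPINB9 (2887270 to 2903309) and SERPINB6 (2948159 to 2971793), all on the minus strand, span 139462 bases of chromosome 6. The other 7 lie on chromosome 18 within 542822 bases, in the order SERPINB5 (63476958 to 63505085), SERPINB13 (63587343 to 63599192), SERPINB4, SERPINB3, SERPINB7 (63753057 to 63805370), SERPINB2 (63887705 to 63903888) and SERPINB8 (63970081 to 64019779), all but SERPINB4 and SERPINB3 on the plus strand. The remaining clade B genes of this cluster, SERPINB10, SERPINB11 and SERPINB12, were all under 0.1 in every parental sample and listed at 0 in every adapted sample. The 3 largest differences of the family (SERPINB4, SERPINB3 and SERPINB7) were neighbors among the 10 members, with SERPINB11 between SERPINB3 and SERPINB7. SERPINB2 and SERPINB8 at the far end of the same cluster had adapted means above the parental ones. For SERPINB8 the groups overlapped and the sign rested on adapted replicate 1. Most of the SERPINB2 difference came from that same sample, and SERPINB2 was under the filter. Next to the chromosome 18 cluster, VPS4B, an endosomal ATPase, rose from 4.02 ± 0.06 to 4.38 ± 0.11 (limma, adjusted p = 0.00608), and KDSR, an enzyme of sphingolipid synthesis, differed by -0.10 (adjusted p = 0.422). Beside the chromosome 6 cluster, RIPK1, a kinase of cell death signaling, rose by 0.56 to 3.56 ± 0.05 (limma, adjusted p = 3.79e-04), while WRNIP1 (-0.09, adjusted p = 0.295) and NQO2 (-0.06, adjusted p = 0.836) did not pass the threshold.

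The 250 bases before each RefSeq start, 15 windows for the 10 members, were searched on both strands for 4 motifs, given here with the share of all 35116 such windows of the annotation that hold them. The AP-1 letters TGACTCA (4.2% of all windows) occurred in 4 of the 15 windows, those of SERPINB7 (2 of its 3), SERPINB8 and SERPINB13. The STAT letters TTCNNNGAA (6.57%) occurred in 3 of the 15, in SERPINB1, SERPINB7 and SERPINB8. The ETS letters CCGGAAG (8.52%) occurred in 3 of the 15, in SERPINB1, SERPINB6 and SERPINB8. The TATA letters TATAAA (10.7%) occurred in 4 of the 15, in SERPINB2, SERPINB7, SERPINB8 and SERPINB9, with overlapping matches on both strands in SERPINB8. The windows of SERPINB3, SERPINB4 and SERPINB5 held none of the 4. A match is a run of letters and no evidence of binding. SERPINB7 and SERPINB8, with differences of -2.71 and 0.15, both held AP-1 letters, as the windows chr18:63777531-63777780 (1 of the 3 RefSeq starts of SERPINB7) and chr18:63969831-63970080 (SERPINB8) show, with those letters in capitals.
SERPINB7: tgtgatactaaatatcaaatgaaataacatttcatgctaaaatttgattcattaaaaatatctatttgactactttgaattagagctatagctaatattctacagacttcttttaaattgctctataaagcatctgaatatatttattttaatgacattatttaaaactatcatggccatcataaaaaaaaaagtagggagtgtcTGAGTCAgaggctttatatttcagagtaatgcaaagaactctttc
SERPINB8: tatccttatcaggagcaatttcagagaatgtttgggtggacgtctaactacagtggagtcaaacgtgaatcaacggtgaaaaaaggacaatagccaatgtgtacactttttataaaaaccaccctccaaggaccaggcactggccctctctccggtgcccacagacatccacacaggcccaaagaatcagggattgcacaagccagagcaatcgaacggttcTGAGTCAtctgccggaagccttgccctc
In SERPINB7 the match began 45 bases before the start and in SERPINB8 28 bases before it, both on the minus strand.

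The rows whose pattern over the 6 samples was nearest to SERPINB4, by Euclidean distance on the log2 values among 19921 named rows other than members, were S100A8, IL1A, MUC5B, IL1B and PTGS1. S100A8, a calcium-binding protein of inflamed epithelium and myeloid cells, was closest at a distance of 0.73, at 6.48 ± 0.06 before and 0.71 ± 0.35 after adaptation (SD, n = 3 each). The cytokine genes IL1A and IL1B were at distances of 1.28 and 1.88, the airway mucin gene MUC5B at 1.76 and the cyclooxygenase gene PTGS1 at 2.28. This distance picks rows with a parental level and a fall like those of SERPINB4, which was itself chosen for its fall. S100A8, IL1A, MUC5B and IL1B ranked 2, 8, 9 and 12 by size of fall among all tested rows. Shared regulation was not tested.

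Among 21 serpins of other clades, 7 passed the filter, of which 2 rose and 4 fell past the threshold with a median log2 difference of -1.56. For this list and those below, the shares over all rows tested were 30.7% called higher and 26.2% called lower. SERPINH1, a collagen chaperone, rose from 3.32 ± 0.07 to 3.89 ± 0.21 (limma, adjusted p = 0.00363). The falls named by rule were SERPINA6, the corticosteroid carrier (2.98 ± 0.15 to 0.45 ± 0.62, adjusted p = 2.76e-04), SERPINA5, the protein C inhibitor (3.36 ± 0.11 to 1.38 ± 0.12, adjusted p = 7.28e-06), and SERPINA3, an acute-phase inhibitor of cathepsin G (5.79 ± 0.10 to 3.87 ± 0.66, adjusted p = 0.00117). SERPINA6 passed the filter through its parental values alone. SERPINE2, the remaining fall, differed by -1.56 (adjusted p = 0.0103).

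The cathepsins, lysosomal proteases that several clade B serpins can inhibit, were for the larger part higher in adapted cells. Of 14 listed, 12 passed the filter, 8 rose and 1 fell, with a median of 0.68. CTSH rose from 4.56 ± 0.08 to 6.26 ± 0.33 (limma, adjusted p = 1.18e-04), CTSO rose by 1.30 (adjusted p = 1.41e-04) and CTSB rose by 1.09 (adjusted p = 5.47e-04). The adapted values of CTSB carried an added constant of 0.65 (described under the processing), and with it subtracted the difference was 0.44 (adjusted p = 0.0301). CTSC was the 1 that fell, from 7.04 ± 0.02 to 6.58 ± 0.09 (adjusted p = 8.05e-04). The cathepsins that SERPINB3 is known to inhibit, named here after their values were seen, were CTSL at -0.21 (adjusted p = 0.0948), CTSS at 0.20 (adjusted p = 0.335) and CTSK at 0.50 (adjusted p = 0.00707). CTSK rose past the threshold and the others did not pass it.

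Of 22 serine proteases listed for comparison, 9 passed the filter, 1 rose and 3 fell, with a median of -0.12. Whether each listed protease is a target of a clade B serpin was not established. The proteases of neutrophils and cytotoxic lymphocytes (ELANE, PRTN3, CTSG and the granzymes) were at or near 0, and 6 of the 22 genes were listed at 0 in every sample. TMPRSS2, a membrane-bound protease of epithelia, rose from 1.12 ± 0.02 to 3.53 ± 0.81 (limma, adjusted p = 0.00103). TMPRSS4, of the same family, fell by 1.69 on the log2 scale (adjusted p = 7.94e-05). PLAU, the urokinase that SERPINB2 inhibits, fell from 7.84 ± 0.01 to 7.18 ± 0.33 (adjusted p = 0.0081), and PLAT, the other plasminogen activator, fell by 0.49 (adjusted p = 0.00888). FURIN, the known target of SERPINB8, was named after its values were seen and differed by 0.07 (adjusted p = 0.375).

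Among 11 kallikrein-related peptidases, which are secreted proteases of epithelia, 3 passed the filter and 2 of these rose, with a median of 1.85. The 2 that rose, KLK10 and KLK11, had parental means of 0.63 and 0.15 and passed the filter through their adapted values alone. Nothing is therefore read from this count or median. With no filter 4 of 10 tested were called higher and 1 lower. KLK10 rose by 2.07 in log2 units (adjusted p = 0.0017 in limma) and KLK11 by 1.85 (adjusted p = 0.0138), and without adapted replicate 2 KLK11 lost its call (1.59, adjusted p = 0.0551). Of 20 other epithelial protease inhibitors, 13 passed the filter, 5 rose and 5 fell, with a median of 0.09. PI3 (elafin), an elastase inhibitor, fell from 4.27 ± 0.04 to 1.23 ± 0.03 (adjusted p = 4.08e-07), SLPI, a secreted inhibitor of leukocyte proteases, fell by 1.71 (adjusted p = 1.88e-04), and CSTB, a cytosolic inhibitor of cathepsins, fell from 6.44 ± 0.06 to 4.93 ± 0.07 (adjusted p = 4.73e-06). The cystatin CST6 rose from 3.07 ± 0.06 to 5.16 ± 0.47 (adjusted p = 1.80e-04). The trypsin inhibitor SPINK1 rose by 0.91 (adjusted p = 0.00947) and the metalloprotease inhibitor RECK rose by 0.66 (adjusted p = 6.74e-04). RECK, with a parental mean of 0.90, also passed the filter through its adapted values alone.

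**Figure D4:**
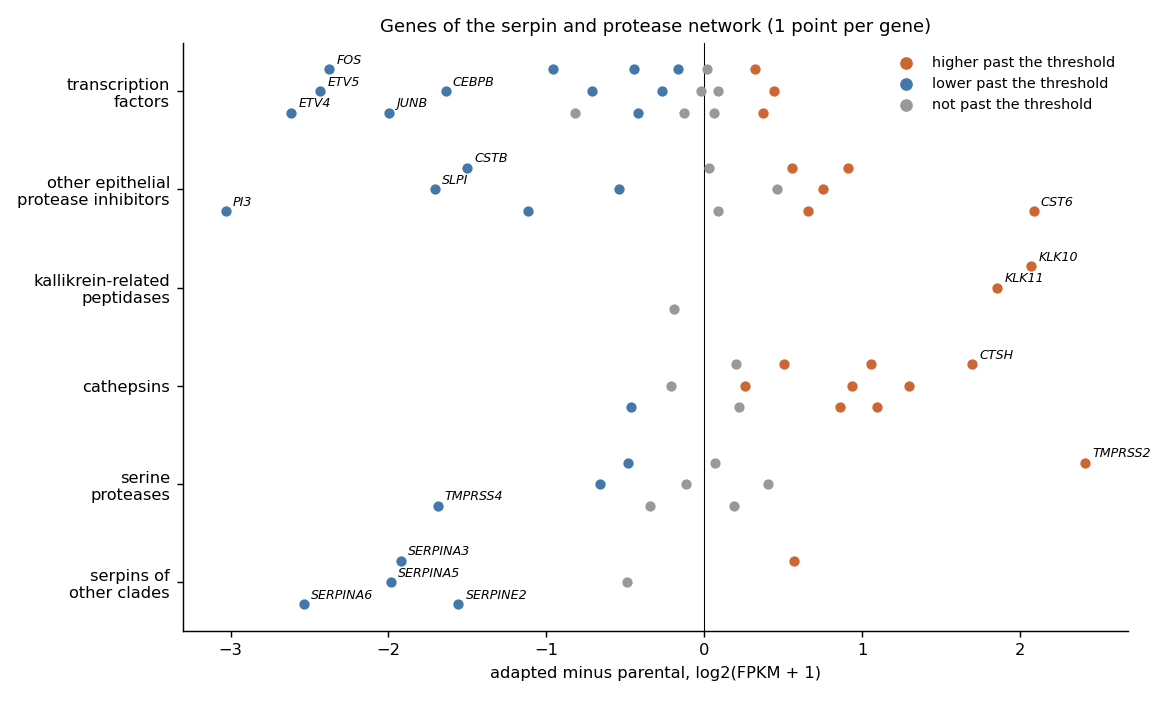
Difference between adapted and parental means (log2, x axis) for tested genes of 6 lists of proteases, inhibitors and transcription factors, with 1 point per gene, orange where it rose, blue where it fell and grey where it did not pass the threshold. Most cathepsins lie above 0, and PI3 lies furthest below 0 of the genes drawn, at -3.03.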

How the data were processed

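RNA-sequencing values of 6 samples were used, 3 parental and 3 adapted. The authors deposited 1 table of log2 values, and its name for the unit is not given in the sources used here. From the values it was read as log2(FPKM + 1). The authors' processing notes list Bowtie2 2.1.0, STAR, edgeR and hg38 with no role given, and the methods of the authors name DESeq2, which needs counts. The labels describe RNase R digestion of linear RNA, the methods total RNA, and an effect on these values was not tested. In 147 rows, none of them a member, the values of 1 group carried an added constant of 0.66, 0.65 or 0.2.

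Rows with a mean of at least 1 were compared in R 4.3.3 by limma 3.58.1 (lmFit, eBayes with a trend, unpaired, two-sided, Benjamini-Hochberg over 12656 rows, threshold 0.05), which was checked on simulated data. Differences are on the log2(value + pseudocount) scale with a pseudocount of 1, on which low genes appear to change less than they do. The members and gene lists were chosen with earlier results of these data known. The named genes were all members, up to 3 rises and 3 falls per list whose groups did not overlap, and the 5 rows nearest to SERPINB4 and to SERPINB1. Some results for genes this rule selects were left out of the text and the figure of list genes. Promoter windows were taken from RefSeq (GRCh38.p14), where all 10 members matched by symbol, and shared stretches from GENCODE v29 transcripts with Python 3.11.15.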

Additional observations from a re-analysis of the deposited data

How the results depend on the processing

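The analysis was repeated with quantile normalization, median centring, a pseudocount of 0.1, a stricter filter (mean of 3 or more) or none, eBayes without a trend, the replicate block, and each sample left out. Leaving out the 147 rows with a constant and subtracting the constants were added after seeing the data. Of 102 member values, 101 kept their direction and their side of the threshold. The exception was SERPINB8, whose difference ranged from -0.0083 (without adapted replicate 1) to 0.27 when single samples were left out. SERPINB3 and SERPINB4 were at -7.52 and -7.51 with a pseudocount of 0.1, against -4.82 and -5.83, so which of the 2 fell more depends on the pseudocount. Members called lower were 6 in every fit except those without a filter (7 of 9 tested) and with the stricter filter (4 of 4 tested), and members called higher were 0 in all fits. Over all rows 7202 passed the threshold, 4532 of 7693 with the stricter filter, 5763 to 8370 when single samples were left out and 6761 with the replicate block. Samples with the same replicate number did not deviate together (r of -0.0509, -0.0309 and -0.0203 across rows), so the numbers were not taken as pairs. Of 270 list counts, 15 moved by over 1.5 times. Of 32 named list genes, KLK11 and KRT8 lost their call in some fit. Depth is unknown, which limits SERPINB2, SERPINB9 and SERPINB13 in both groups and SERPINB3 and SERPINB4 in adapted samples, where values lay near 0.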

Other observations

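Among 22 transcription factors listed for comparison, 21 passed the filter, 4 rose and 11 fell, with a median log2 difference of -0.27. Whether each of them has a site at a clade B promoter was not established. The ETS factors ETV4 and ETV5, which are transcribed downstream of ERK signaling, fell by 2.62 (limma, adjusted p = 1.67e-05) and by 2.43 (adjusted p = 1.77e-04) on the log2 scale, and the AP-1 subunit FOS fell from 2.96 ± 0.05 to 0.59 ± 0.06 (SD, n = 3 each, adjusted p = 1.99e-06). FOS passed the filter through its parental values alone. STAT6 and FOSL2, another AP-1 subunit, rose by 0.44 (adjusted p = 0.00144) and 0.37 (adjusted p = 0.00192). Members of the AP-1 family were thus found in both directions.

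Of the 6 epithelial markers, 1 rose and 3 fell. The keratin KRT7 rose by 1.07 in log2 units (adjusted p = 2.19e-04 in limma), while KRT19 fell by 0.75 and KRT18 fell by 0.57, and the call of KRT8 (-0.28) was lost in some fits. Of the 10 markers of other cell types only COL1A1 passed the filter, and it rose from 2.02 ± 0.02 to 3.14 ± 0.16 (adjusted p = 7.80e-05). Under the filter, the endothelial marker PECAM1 was at 1.22 ± 0.21 in parental and 0.09 ± 0.02 in adapted samples and the monocyte marker CD14 at 0.77 ± 0.03 and 0.21 ± 0.08, and with no filter 2 of the 8 markers tested were called higher and 2 lower.

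SERPINB1 had the highest adapted mean of the clade B serpins. The rows nearest to its pattern were MTHFD2, an enzyme of mitochondrial folate metabolism, at a distance of 0.24, the aspartyl-tRNA synthetase gene DARS at 0.25, the GTPase gene RALB at 0.35, the glucose transporter gene SLC2A1 at 0.38 and NUCKS1 at 0.41.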
